A study of Homo sapiens with 18 samples.

Results

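The genes described here, 40 of the 38716 gene symbols listed in every library, serve folding, import and quality control in the endoplasmic reticulum (ER) and were chosen by name and sorted by role. Folding factors made up 16 of them, ER-associated degradation (ERAD) factors 9, subunits of the translocon and the signal peptidase complex 10, and sensors and transcription factors of the unfolded protein response (UPR) 5. The rule used names and no measured value, but the genes were chosen with earlier results of these data known. Footprints of ribosomes on mRNA (Ribo-seq) and poly(A) mRNA (mRNA-seq) were sequenced from IMR90, human fetal lung fibroblasts of which the methods name 1 repository isolate, in 18 libraries forming 6 groups of 3 replicates. Young cells were proliferating at low passage, old cells were senescent after passaging to replicative exhaustion, and the third state, ICM, was reached by exposing low-passage cells to inflachromene, which binds the chromatin proteins HMGB1 and HMGB2. The labels name no genetic change in any group, and give neither the dose nor the duration of inflachromene for these libraries. The paper states 6 days of treatment for its Ribo-seq data on ICM cells. Per the methods, replicate cultures were grown independently and each lysate was divided between the assays. The study describes its Ribo-seq data on replicative senescence as made earlier, and compares them with data it generated from proliferating and ICM-treated cells. Its methods, in contrast, describe the Ribo-seq cultures of young, old and ICM cells in a single account. The labels give no batch, nor whether the young libraries were made with the old or the ICM libraries. A batch difference, if there was one, cannot be told apart from the groups between old and ICM, and in 1 of the comparisons with young. By the study's wording on earlier data the latter is old against young. The series' design text gives other group sizes than the labels, which were followed.

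Secretory and membrane proteins enter the ER through the SEC61 channel, lose their signal peptides, and fold with the help of chaperones, disulfide isomerases and the lectins calnexin and calreticulin. Proteins that fail to fold are trimmed, passed back across the membrane and degraded by ERAD. When unfolded proteins build up, the sensors IRE1 (gene ERN1), ATF6 and PERK start the UPR: IRE1 splices XBP1 mRNA, ATF6 is cut in the Golgi, and the freed factors switch on genes for chaperones and ERAD. Fibroblasts secrete large amounts of collagen and other matrix, and CREB3L1 and CREB3L2, relatives of ATF6 that are released in the same manner, are known regulators of that secretory load.

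Levels are given as CPM, that is reads per 1000000 reads used in a library, where the reads used were those of the CDS in Ribo-seq and of the 5′ UTR, CDS and 3′ UTR in mRNA-seq. The mRNA-seq libraries held 7902427 to 14144455 such reads. The Ribo-seq libraries held 46239 to 1718521, a 37.2-fold range, and 708 to 27883 of these fell in the 40 genes. A pair of Ribo-seq libraries stood apart, since only 34.4% of the reads of young replicate 1 and 15.0% of those of old replicate 2 lay in the CDS, against 54.7% to 88.8% in the other 7. Counts of Ribo-seq calls among the 40 genes, and the changes of some single genes, are therefore given with and without this pair. Other Ribo-seq values, and those of the further gene lists below, include the pair. All 9 fibroblast markers were detected in mRNA-seq, and their summed level was 29280 to 33010 CPM in young, 25790 to 29040 in old and 12590 to 12880 in ICM. Epithelial markers (4 of 5 above 1 CPM, with CDH1 below 1 CPM throughout) summed to 315 to 340 CPM in young, 231 to 253 in old and 45.5 to 52.4 in ICM. The defining markers PECAM1 and CDH5 of endothelium and PTPRC and CD3E of immune cells stayed below 1 CPM, and 1 gene of each of these 3-gene lists exceeded 1 CPM in any library. The endothelial list summed to 0.612 to 0.677 CPM in young, 0.797 to 0.978 in old and 3.63 to 4.64 in ICM, and the immune list to 19.7 to 21.9, 30.2 to 33.1 and 55.6 to 66.5 CPM. The part of these shifts in the results below was not tested.

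The genes took 1.18% to 1.22% of the mRNA-seq reads of young cells, 1.30% to 1.38% in old and 1.30% to 1.36% in ICM. Per kilobase of coding sequence, CALR (calreticulin, a lectin chaperone), PPIB (cyclophilin B, a prolyl isomerase) and P4HB (protein disulfide isomerase, also a subunit of collagen prolyl hydroxylase) stood highest of the 40 in both assays. Their mRNA-seq levels were 1606, 1365 and 1329 CDS reads per kilobase of CDS and 1000000 reads, averaged over the 9 libraries. HSPA5 (BiP, the major HSP70 chaperone of the ER) stood at 591, SSR3 at 599 and CREB3L1 at 212. At the other end stood ERN1, at 2.58, and DERL3, at 0.677, with 6 mRNA-seq reads in the young libraries, 18 in the old and 20 in the ICM libraries and 1 Ribo-seq read in all. DERL3 was left out of all tests by the filter on low counts, and SDF2L1, EDEM2 and ERN1 also of those on Ribo-seq.

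In mRNA-seq, 6 of 8 tested ERAD genes rose in both ICM and old cells (5 under scaling to library totals, without DERL2). In ICM, 9 of 10 genes for ER import rose, and 4 of 5 genes of UPR sensors and factors fell. Of 16 folding genes, 9 rose and 4 fell in ICM. In ICM against young, 33 of 39 tested genes changed, 24 of them higher and 9 lower (edgeR, adjusted p under 0.05). Over all 13173 genes tested, 34.9% were higher and 36.1% lower, so that a large share of the transcriptome differed. The median log2 change was 0.23 for the members and -0.01 for all genes. In old against young, 23 changed, 22 higher and 1 lower, against 32.4% higher and 33.7% lower of all genes, with medians of 0.22 and -0.01. Both comparisons share the young libraries and are therefore given side by side. With counts scaled to library totals alone, which moved the median of all genes in old against young to -0.11, 19 genes were called higher and 4 lower. DERL2, PDIA3 and CREB3L1 were then no longer called, while HSPA5, MANF and SSR2 joined XBP1 as lower. In ICM against young this scaling left 24 higher and 7 lower. In a bulk sample, fewer cells that express a gene and less of its RNA per cell cannot be told apart.

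**Figure D1:**
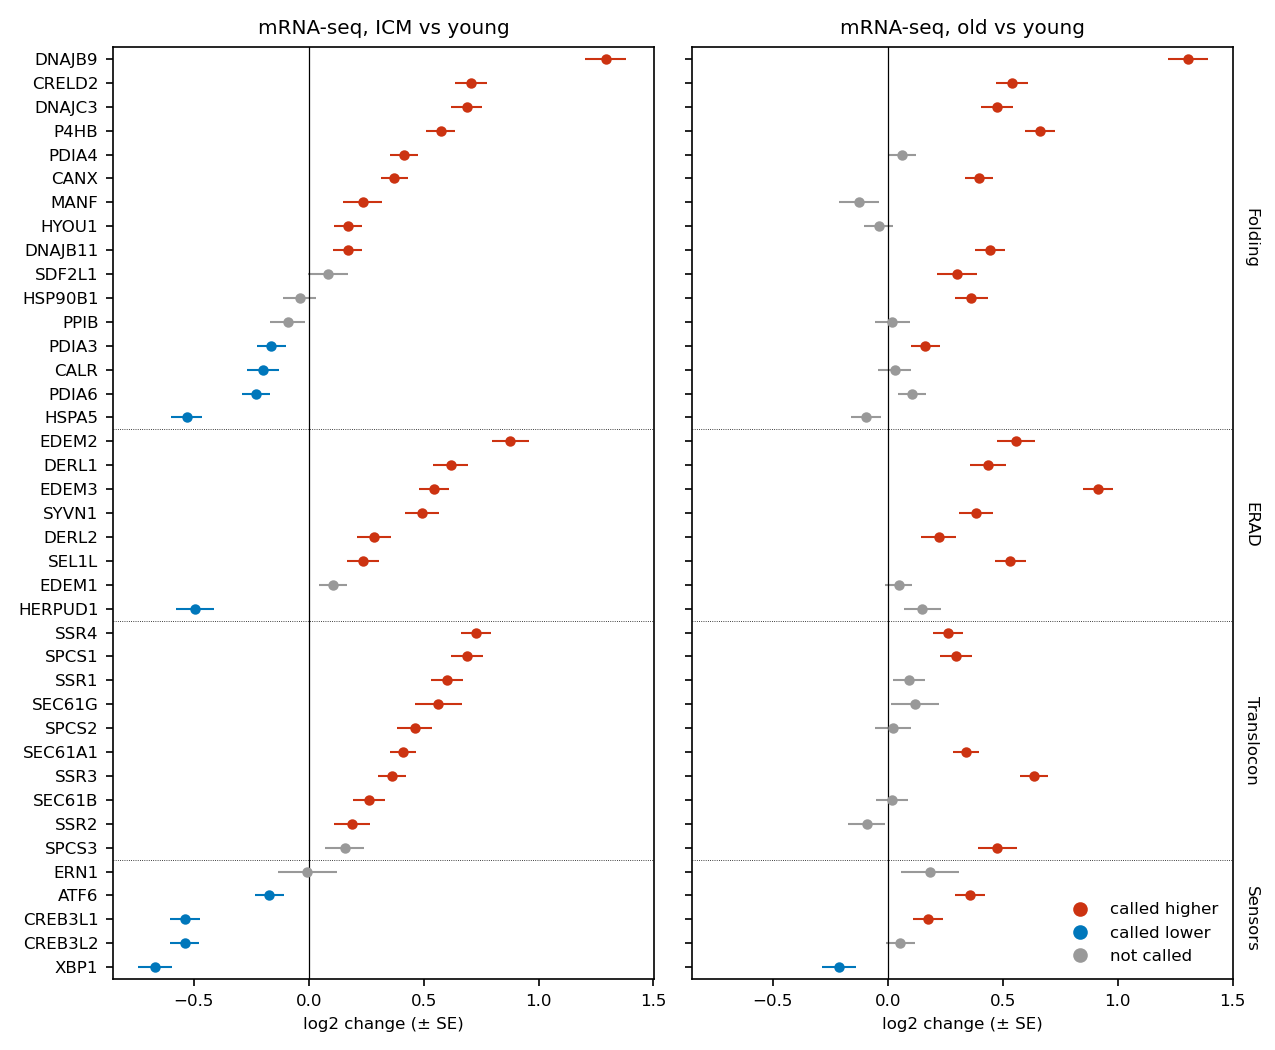
Log2 change in mRNA-seq (x axis, points with SE) of the 39 tested genes, grouped by role, in ICM against young (left) and old against young (right). Red and blue mark genes called higher and lower at an adjusted p under 0.05, and grey those not called. The translocon genes lie to the right of 0 in ICM against young and the sensors, apart from ERN1 at -0.01, to the left.

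Counts of calls differed between roles, a difference that was not tested. In ICM against young, 9 of 10 translocon and signal peptidase genes rose and none fell, 6 of 8 tested ERAD genes rose and 1 fell, and 9 of 16 folding genes rose and 4 fell. Among the 5 sensors and factors none rose and 4 fell. In old against young the numbers were 5 higher and 0 lower for the translocon, 6 and 0 for ERAD, 9 and 0 for folding, and 2 and 1 for the sensors and factors. The summed mRNA-seq level of the sensors was 750 ± 26.8 CPM in young, 751 ± 22.6 in old, and in ICM 535 ± 12.4 (n = 3 each, ± SD), without overlap between ICM and the other groups. That of the translocon was 2451 ± 51.2 CPM in young, 2856 ± 131 in old and 3325 ± 88.8 in ICM, and the 3 groups did not overlap. Direct comparison of ICM with old gave 7 translocon genes higher and 2 lower in ICM, and 4 sensors lower and none higher. Over all roles 14 genes were higher and 16 lower in ICM, against 30.7% and 32.6% of all genes, and 18 were higher and 14 lower under scaling to library totals.

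**Figure D2:**
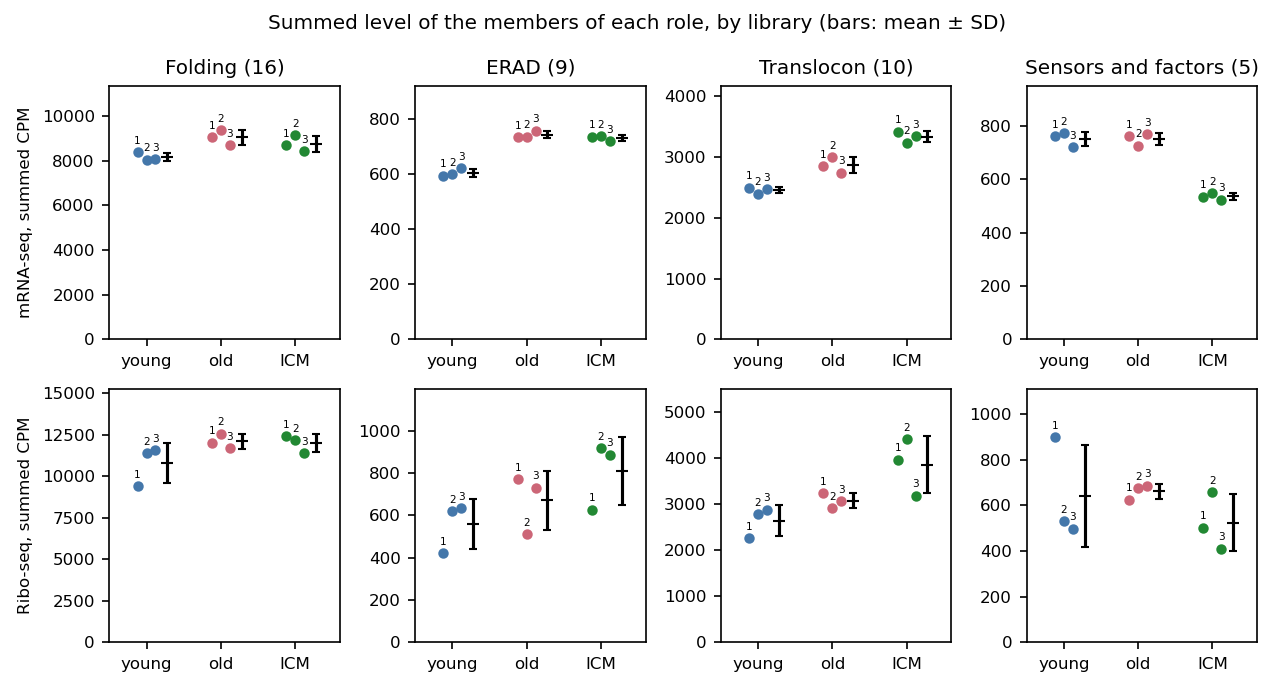
Summed CPM of the members of each role (y axis, from 0) in mRNA-seq (top) and Ribo-seq (bottom) for each library, with the replicate number at each point and the mean ± SD beside each group. In mRNA-seq the ICM libraries are lowest for the sensors, at 523 to 548 CPM, and highest for the translocon, at 3230 to 3406 CPM.

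XBP1, the transcription factor activated through IRE1, was the only member whose mRNA fell in both comparisons, with HSPA5 joining it under scaling to library totals. Its mRNA-seq level was 152, 155 and 141 CPM in the young libraries, 114, 126 and 122 CPM in the old and 88.7, 108 and 90.4 CPM in the ICM libraries. The 3 groups did not overlap, with ICM lowest. The log2 change was -0.67 (SE 0.08, edgeR adjusted p 5.19e-08) in ICM against young and -0.21 (SE 0.07, 0.0158) in old against young, where the call was lost without young replicate 2 or old replicate 1 (adjusted p up to 0.0798). The tables do not separate spliced from unspliced XBP1 mRNA.

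CREB3L1 and CREB3L2 fell with inflachromene and not in old cells. CREB3L1 was at 350, 344 and 308 CPM in young, 369, 334 and 356 CPM in old and 233, 240.1 and 229 CPM in ICM. All 3 ICM libraries lay below every other library, while young and old overlapped. The log2 change was -0.54 (SE 0.07, edgeR adjusted p 1.75e-07) in ICM against young and 0.17 (SE 0.06, 0.0222) in old against young, a call that was lost under scaling to library totals (0.08, adjusted p 0.272) and without young replicate 3 or old replicate 1. CREB3L2 was at 177, 192 and 185 CPM in young, at 180.1, 171 and 188 CPM in old and at 135, 129 and 125 CPM in ICM. Its log2 change was -0.54 (SE 0.06, edgeR adjusted p 1.02e-07) in ICM against young, and 0.05 (SE 0.06, 0.468) in old against young, where the groups overlapped.

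ATF6, one of the 3 classical UPR sensors, was higher in old and lower in ICM than in young. It was at 68.3, 66.9 and 72.4 CPM in young, 81.0, 82.8 and 85.4 CPM in old and 63.9, 59.0 and 64.8 CPM in ICM, with no overlap between the groups. The rise in old cells was 0.36 on the log2 scale (SE 0.06, edgeR adjusted p 3.72e-05). The fall in ICM was small, -0.17 (SE 0.06, 0.0229), and was no longer called with DESeq2, under scaling to library totals, or without young replicate 3 or ICM replicate 2 (adjusted p up to 0.0996). ERN1, which encodes IRE1, was at 14.2, 12.8 and 12.6 CPM in young, 15.5, 11.3 and 15.7 CPM in old and 14.4, 11.8 and 13.5 CPM in ICM, and these overlapped throughout.

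**Figure D3:**
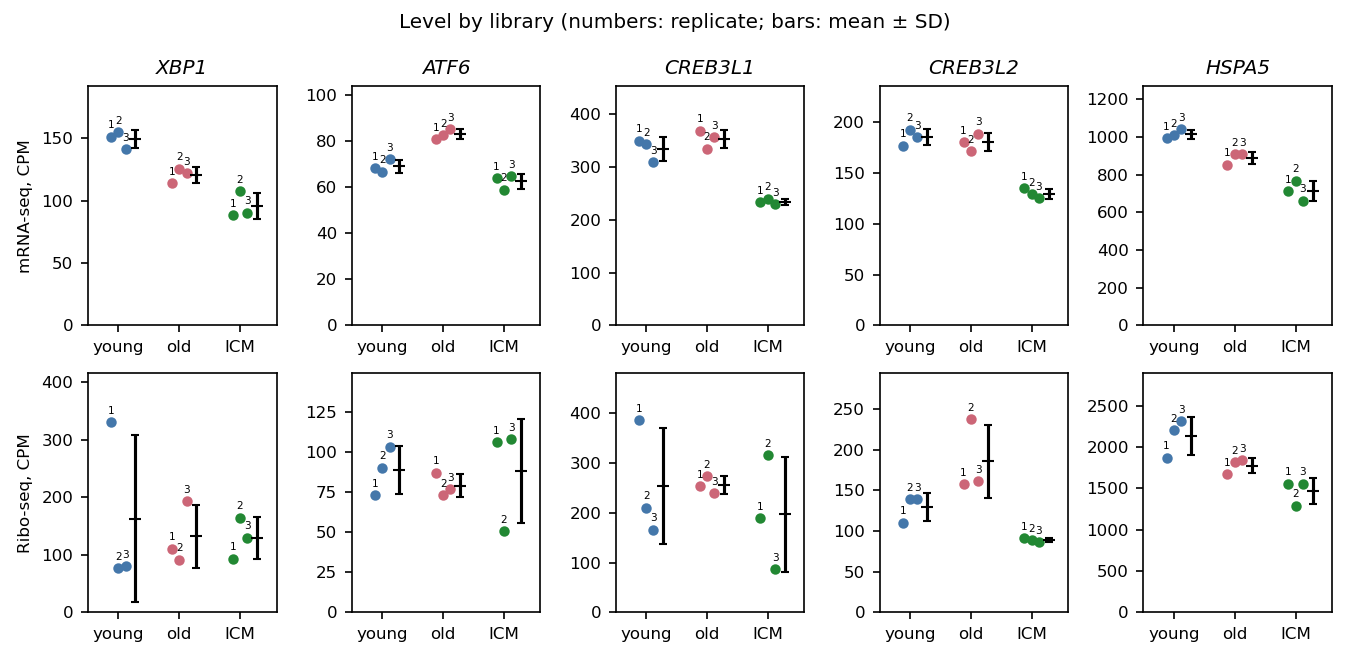
CPM of XBP1, ATF6, CREB3L1, CREB3L2 and HSPA5 (y axes, from 0) in mRNA-seq (top) and Ribo-seq (bottom) in each library, with replicate numbers and the mean ± SD. The ICM libraries are lowest for all 5 genes in mRNA-seq, and in Ribo-seq young replicate 1 stands high for XBP1, at 331 CPM, and for CREB3L1, at 386 CPM.

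The folding factors split in ICM cells. HSPA5, the chaperone that also holds the UPR sensors inactive, was at 995, 1010 and 1040 CPM in young, 853, 909 and 908 CPM in old and 712, 769 and 662 CPM in ICM. The 3 groups did not overlap in CPM, and the ICM libraries were lowest. The log2 change was -0.53 (SE 0.07, edgeR adjusted p 2.31e-07) in ICM against young and -0.10 (SE 0.07, 0.209) in old against young, which became a called fall of 0.19 under scaling to library totals (adjusted p 0.0118). The other 3 folding genes lower in ICM were CALR, PDIA3 and PDIA6, the latter pair being disulfide isomerases. CALR was at 1797, 1638 and 1619 CPM in young, 1638, 1708 and 1483 CPM in old and 1454, 1591 and 1431 CPM in ICM, so that old overlapped with both other groups. The changes of CALR (-0.20, SE 0.07, adjusted p 0.0149) and PDIA3 (-0.16) in ICM were each lost in at least 4 of 17 alternatives, among them leaving out young replicate 1, ICM replicate 1 or ICM replicate 3, whereas that of PDIA6 (-0.23) was kept in all 17. PPIB passed neither test and was at 699, 637 and 611 CPM in young, 637, 677 and 534 CPM in old and 629, 627 and 604 CPM in ICM, all overlapping, with log2 changes of -0.09 (SE 0.08) and 0.02 (SE 0.08).

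Of the 9 folding genes that rose in ICM, 6 rose in old cells too. The largest rise was in DNAJB9 (ERdj4, a co-chaperone of BiP that feeds substrates to ERAD), from 17.7, 18.5 and 22.2 CPM in young to 44.6, 47.7 and 43.4 CPM in old and 51.6, 45.8 and 48.7 CPM in ICM. Neither old nor ICM overlapped with young, and they overlapped with each other. The log2 changes were 1.31 (SE 0.09, edgeR adjusted p 1.87e-11) in old and 1.29 (SE 0.09, 1.18e-11) in ICM. CRELD2, an ER-resident factor with disulfide isomerase activity, rose from 49.9, 45.7 and 47.4 CPM to 69.4, 61.9 and 63.3 CPM in old and 81.3, 75.2 and 80.2 CPM in ICM, changes of 0.54 (SE 0.07) in old and 0.70 (SE 0.07) in ICM. P4HB went from 1395, 1433 and 1348 CPM to 2120, 2028 and 2042 CPM in old and 2089, 2219 and 2020 CPM in ICM, with log2 changes of 0.66 (SE 0.06, edgeR adjusted p 5.45e-09) in old and 0.57 (SE 0.06, 3.76e-08) in ICM. DNAJC3 (p58IPK, another co-chaperone of BiP) rose by 0.69 in ICM and 0.47 in old, CANX (calnexin) by 0.37 and 0.40, and DNAJB11 (ERdj3) by 0.17 and 0.44. The rise of DNAJB11 in ICM was lost in 4 of 17 alternatives, namely without young replicate 2 or 3 or ICM replicate 1 or 2 (adjusted p up to 0.110). PDIA4, HYOU1 (a nucleotide exchange factor for BiP) and MANF rose in ICM, by 0.41, 0.17 and 0.23, and were not called in old. The rise of HYOU1 was lost without ICM replicate 1 or 2 (adjusted p up to 0.0617) and that of MANF without young replicate 3 or ICM replicate 2 (up to 0.164). HSP90B1 (GRP94, the HSP90 of the ER) and SDF2L1 rose in old, by 0.36 and 0.30, and were not called in ICM.

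The promoters of the members were searched for elements of the UPR. The ER stress response element (ERSE), to which ATF6 binds together with NF-Y, consists of CCAAT, 9 bases and CCACG. Windows from 250 bases before to 50 bases after each start (RefSeq, GRCh38.p14) were searched on both strands and were at hand for 36 of the 40 genes. The element was found in 7 of the 36 (19.4%), against 25 of all 27305 genes with a window (0.0916%). The mRNA-seq log2 changes of the 7 in ICM against young were -0.67 (XBP1), -0.53 (HSPA5), -0.23 (PDIA6), -0.20 (CALR), -0.04 (HSP90B1, not called), 0.37 (CANX) and 0.705 (CRELD2). The sites are printed below on the strand of the element, with the CCAAT and CCACG boxes in capitals.
HSPA5, chr9:125241391-125241409, element on the strand of the gene: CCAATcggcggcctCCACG
XBP1, chr22:28800603-28800621, element on the strand of the gene: CCAATcgcggagggCCACG
CALR, chr19:12938384-12938402, element on the opposite strand: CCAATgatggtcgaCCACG
CANX, chr5:179698778-179698796, element on the strand of the gene: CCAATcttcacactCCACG
PDIA6, chr2:10812853-10812871, element on the strand of the gene: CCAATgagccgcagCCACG
CRELD2, chr22:49918554-49918572, element on the opposite strand: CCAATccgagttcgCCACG
HSP90B1, chr12:103930216-103930234, element on the strand of the gene: CCAATcggaaggagCCACG
HSP90B1, chr12:103930321-103930339, element on the opposite strand: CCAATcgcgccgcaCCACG

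The 8 sites began 52 to 225 bases before the start, and 6 of the 7 genes were folding factors. In ICM against young, 2 of the 7 genes with the element were higher and 4 lower in mRNA-seq, with a median log2 change of -0.20, whereas of 29 other genes with a window 20 were higher and 4 lower, with a median of 0.26. In old against young the numbers were 3 higher and 1 lower with the element (median 0.10), and 16 higher and 0 lower without it (median 0.22). Over all genes tested, 34.9% were higher and 36.1% lower in ICM against young, and 32.4% and 33.7% in old against young. Shares, counts and medians are a description only, for genes chosen by name for ER and UPR roles. The element cannot be told apart from role here, and a match does not show that a factor binds there. The shorter element ERSE-II (ATTGG, 1 base, CCACG, in which ATTGG is CCAAT read on the other strand) was present in HERPUD1, HYOU1 and SDF2L1, that is 8.33% of the genes with a window against 0.0696% of all genes. The mRNA-seq log2 changes in ICM against young were -0.50 for HERPUD1, 0.17 for HYOU1 and 0.08 (not called) for SDF2L1. In HERPUD1 the site of ERSE-II lay at chr16:56932025-56932035 on the strand of the gene, printed with both boxes in capitals.
HERPUD1: ATTGGgCCACG

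The core TGACGTG of the UPR element bound by XBP1 was present in 4 genes (11.1%, against 2.40% of all genes), namely HYOU1, which also held ERSE-II, SEC61A1, SSR3 and SSR4. None of the 9 translocon genes with a window held an ERSE or ERSE-II.

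Among ERAD genes, EDEM2, EDEM3, SYVN1, SEL1L, DERL1 and DERL2 rose in both old and ICM cells. EDEM2, which trims mannose from misfolded glycoproteins, was at 22.8, 24.6 and 23.8 CPM in young, 33.9, 33.5 and 31.0 CPM in old and 42.3, 43.7 and 47.7 CPM in ICM. EDEM3, of the same family, was at 55.1, 55.2 and 57.8 CPM in young, at 100.1, 93.9 and 103 CPM in old and at 85.8, 80.9 and 83.3 CPM in ICM. No groups overlapped for either gene, but their order differed, since EDEM2 was highest in ICM (log2 change 0.88 against 0.56 in old; ICM against old 0.32, SE 0.08, edgeR adjusted p 0.000808) and EDEM3 in old (0.55 against 0.91; ICM against old -0.37, SE 0.06, 2.14e-05). DERL1, a channel-like protein of the ERAD complex, went from 70.9, 82.1 and 81.6 CPM in young to 98.1, 102 and 97.8 CPM in old and 129, 128 and 109.9 CPM in ICM, with changes of 0.44 (SE 0.08) in old and 0.62 (SE 0.08) in ICM. The ligase SYVN1 (HRD1) rose by 0.38 in old and 0.49 in ICM, its partner SEL1L by 0.53 and 0.23, and DERL2 by 0.22 and 0.28, the rise of DERL2 in old being lost under scaling to library totals (0.13, adjusted p 0.152). EDEM1 was not called in either.

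HERPUD1 moved against the rest of the ERAD group. This UPR-induced adaptor of the ligase complex was at 120.3, 118 and 122 CPM in young, 121, 129 and 124 CPM in old and 81.2, 102 and 77.3 CPM in ICM. The ICM libraries lay below all others, and young and old overlapped. The log2 change was -0.50 (SE 0.08, edgeR adjusted p 1.25e-05) in ICM against young and 0.15 (SE 0.08, 0.105) in old against young.

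In the translocon group, the rise with inflachromene took in the channel, the translocon-associated protein complex (SSR1 to SSR4) and the signal peptidase. SSR4 was at 161, 159 and 151 CPM in young, 183, 187 and 158 CPM in old and 264, 263 and 266 CPM in ICM. SPCS1, a signal peptidase subunit, was at 72.3, 74.8 and 83.1 CPM in young, 87.4, 94.7 and 83.0 CPM in old and 125, 128 and 125 CPM in ICM. For both genes ICM lay above all other libraries while old overlapped with young, and the changes were 0.73 (SE 0.07, edgeR adjusted p 1.77e-09) for SSR4 and 0.69 (SE 0.07, 7.63e-09) for SPCS1 in ICM, against 0.26 and 0.30 in old. SEC61G, SSR1 and SPCS2 rose by 0.56, 0.60 and 0.46 in ICM and were not called in old (0.12, 0.09 and 0.02).

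The opposite order held for SSR3 and SPCS3. SSR3 was at 478, 443 and 469 CPM in young, at 656, 704 and 664 CPM in old and at 633, 583 and 601 CPM in ICM, where old and ICM did not overlap (log2 change in ICM against old -0.28, SE 0.06, edgeR adjusted p 0.000386). SPCS3 was at 165, 155 and 201 CPM in young, 213, 247 and 219 CPM in old and 204, 177 and 212 CPM in ICM. It was called in old (0.48, SE 0.08, edgeR adjusted p 3.86e-05) and not in ICM (0.16, SE 0.09, 0.103), which overlapped with young. SEC61A1, the pore-forming subunit, rose in both, from 835, 822 and 806 CPM to 975, 976 and 968 CPM in old and 1125, 1103 and 1101 CPM in ICM. SEC61B and SSR2 rose in ICM by 0.26 and 0.19, the latter lost in 5 of 17 alternatives.

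Fewer members passed the test on ribosome footprints, a test that recovered 41.4% of simulated 2-fold changes, against 100% in mRNA-seq. In Ribo-seq, 7 of 36 tested genes changed in ICM against young, 6 higher and 1 lower (edgeR, adjusted p under 0.05), where 13.7% of 4643 genes were higher and 12.9% lower. In old against young 9 changed, 8 higher and 1 lower, where 19.3% were higher and 17% lower. The median log2 change of the 36 was 0.32 in ICM against young and 0.30 in old against young, against 0.00 and 0.02 for all genes. Without young replicate 1 and old replicate 2 the calls numbered 7 (5 higher, 2 lower) and 11 (11 higher). With DESeq2 6 were called in ICM against young and 2 in old against young, and without young replicate 2 only 1 in old against young.

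**Figure D4:**
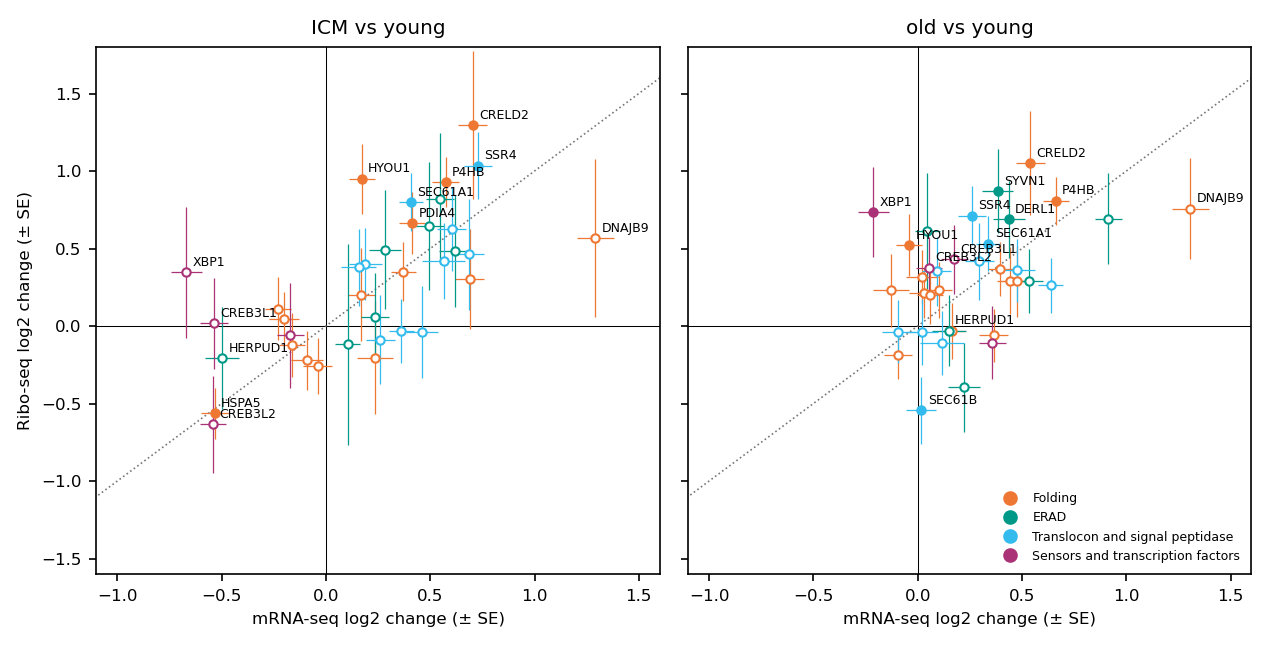
Log2 change in Ribo-seq (y axis) against that in mRNA-seq (x axis) of the 36 genes tested in both, in ICM against young (left) and old against young (right), with SE bars. Colours mark the roles, filled points genes called in Ribo-seq, and the dotted line equal change. CRELD2, P4HB, SSR4, SEC61A1 and HYOU1 are filled and above 0 in both panels, and HSPA5 is filled and below 0 in ICM against young.

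Genes called higher in Ribo-seq in both comparisons were P4HB, HYOU1, CRELD2, SEC61A1 and SSR4. P4HB was at 1415, 1282 and 1295 CPM in young, 2050, 2233 and 2200 CPM in old and 2462, 2688 and 2422 CPM in ICM, without overlap between the 3 groups. Its log2 change was 0.93 (SE 0.16, edgeR adjusted p 2.92e-05) in ICM and 0.81 (SE 0.16, 9.93e-05) in old, and both calls were kept in all alternatives tried. SSR4 was at 147, 241 and 223 CPM in young, 334, 329 and 346 CPM in old and 453, 519 and 389 CPM in ICM, again without overlap, with changes of 1.03 (SE 0.22, 0.000463) in ICM, kept in all alternatives, and 0.71 (SE 0.19, 0.0038) in old. The latter call was lost in 5 of 18 alternatives (thinned libraries, and without young replicate 2 or 3 or old replicate 1 or 3), with adjusted p up to 0.085. SEC61A1 rose by 0.80 (SE 0.19) in ICM, a call lost without the filter or ICM replicate 2, and by 0.53 (SE 0.18) in old, a call lost in 9 of 18 alternatives with adjusted p up to 0.351, among them DESeq2 and leaving out young replicate 2 or 3 or old replicate 1 or 3.

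HYOU1 was at 165, 210.2 and 266 CPM in young, 325, 311 and 293 CPM in old and 524, 418 and 324 CPM in ICM. Its rise of 0.95 in ICM (SE 0.23, edgeR adjusted p 0.00163; 0.79 without the pair of libraries) was lost without ICM replicate 1 (0.232), and that of 0.52 in old was lost in 10 of 18 alternatives. CRELD2 rested on few reads (70 in the young, 134 in the old and 26 in the ICM libraries). Young replicate 1 stood at 110 CPM from 6 reads, against 27.7 and 26.2 CPM in the other young libraries, 61.3, 54.8 and 49.7 CPM in old and 84.4, 63.3 and 43.3 CPM in ICM. The fitted rises of 1.30 (SE 0.48) in ICM and 1.05 (SE 0.34) in old were lost in 9 of 16 and 6 of 17 alternatives, DESeq2 among them.

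**Figure D5:**
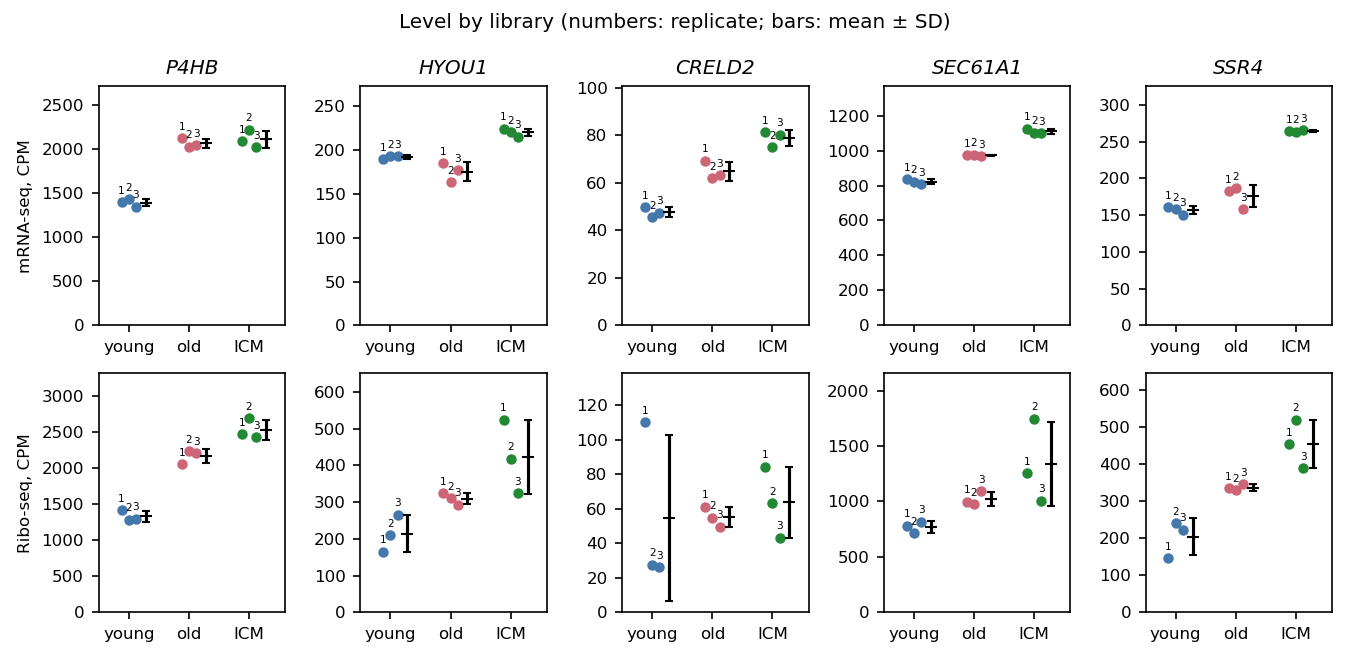
CPM of the 5 genes called higher in Ribo-seq in both comparisons (y axes, from 0) in mRNA-seq (top) and Ribo-seq (bottom) in each library, with replicate numbers and the mean ± SD. Young lies below old and ICM in both assays for P4HB and SEC61A1, and the Ribo-seq levels of CRELD2 overlap between all groups.

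With all libraries in the fit, the 1 member lower in Ribo-seq in ICM against young was HSPA5. It was at 1874, 2206 and 2314 CPM in young, 1671, 1819 and 1841 CPM in old and 1556, 1291 and 1557 CPM in ICM, in the same order as in mRNA-seq and without overlap between the groups. The change was -0.56 (SE 0.17, edgeR adjusted p 0.0105) and became -0.76 (7.21e-05) without young replicate 1 and old replicate 2. It was lost without young replicate 3 or ICM replicate 2 (adjusted p up to 0.0636). Without the pair of libraries HSP90B1 was also called lower in ICM (-0.50, edgeR adjusted p 0.0257). PDIA4 was called higher in ICM only (0.66, SE 0.20, edgeR adjusted p 0.012). That call was lost in 6 of 18 alternatives (adjusted p up to 0.299), among them without the pair (0.51, 0.0655). SYVN1 and DERL1 were called higher in old only, with changes of 0.87 (SE 0.27) and 0.69 (SE 0.25). Both calls were lost without young replicate 2 or 3, or without old replicate 1 or 3. SEC61B was the only member lower in old, at 165, 184 and 173 CPM in young against 135, 91.4 and 77.1 CPM in the old libraries. The log2 change was -0.54 (SE 0.22, edgeR adjusted p 0.0473). This call was lost in 8 of 17 alternatives (adjusted p up to 0.289), among them DESeq2 and without the pair (0.0918).

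XBP1 was the only gene called in both assays in opposite directions. In old against young its mRNA fell, by 0.21 on the log2 scale, and its footprints rose by 0.74 (SE 0.29, edgeR adjusted p 0.045). The young libraries stood at 331, 77.4 and 80.3 CPM, the first from 18 reads in the library with a CDS share of 34.4%, and the old libraries at 111, 91.4 and 194 CPM, so that the groups overlapped and the plain mean was higher in young (163 ± 146 CPM) than in old (132 ± 54.3 CPM, n = 3 each). Without young replicate 1 and old replicate 2 the rise was 1.01 (adjusted p 0.000694). It was lost in 9 of 17 alternatives, with DESeq2 giving 0.12 (0.929) and leaving out young replicate 2 giving 0.31 (0.687). In ICM the libraries stood at 93.3, 165 and 130 CPM (log2 change against young 0.35, SE 0.42, 0.583).

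Between ICM and old cells 1 of 36 genes was called in Ribo-seq (edgeR, 6 at an unadjusted p under 0.05), while 5.79% of all genes were higher and 7.62% lower, and DESeq2 called 0. This was CREB3L2, at 91.1, 88.6 and 86.5 CPM in ICM, 158, 238 and 161 CPM in old and 110, 139 and 139 CPM in young, with no overlap. The log2 change was -1.01 (SE 0.31, edgeR adjusted p 0.0223; -1.12 without the pair), resting on 7 and 4 reads in ICM replicates 2 and 3, and was lost in 8 of 17 alternatives, among them leaving out old replicate 1 or 3 or ICM replicate 1 or 2. Without the pair, PPIB (-0.78, edgeR adjusted p 0.00068) and HSPA5 (-0.55, 0.0122) were also called lower in ICM than in old. With all libraries in the fit, the footprints of ATF6, CREB3L1 and HERPUD1 were called in no comparison. Their ICM libraries spread widely, for HERPUD1 from 76.0 to 281 CPM on 39 reads. CREB3L1 was called higher in old against young without the pair (0.57, edgeR adjusted p 0.034) and with the compared groups alone (0.48, 0.0188).

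Translational efficiency, the change in Ribo-seq relative to that in mRNA-seq, passed for none of the 36 genes in any comparison with edgeR or with DESeq2. The edgeR test recovered 32.4% of simulated 2-fold changes, so a missing call does not show that efficiency was unchanged. At an unadjusted p under 0.05 edgeR gave 3 genes in ICM against young, 4 in old against young and 2 in ICM against old. Of all 4618 genes, 1.41% were higher and 1.04% lower in ICM against young, 0.845% and 0.606% in old against young, and 0.065% and 0.195% in ICM against old. The smallest adjusted p values belonged to HYOU1 in ICM against young (log2 change 0.78, SE 0.23, edgeR adjusted p 0.0589) and to XBP1 in old against young (0.98, SE 0.29, 0.0936). XBP1 passed without young replicate 1 (1.10, 0.00863), without old replicate 2 (0.0269), without the pair of libraries (1.17, 0.00191), without any 1 of the ICM replicates (0.00571 to 0.0314) and without the lysate block (0.00917), but neither with DESeq2 nor without young replicate 2 or 3 or old replicate 1 or 3. For HSPA5 the value was -0.03 (SE 0.18) in ICM against young and -0.02 (SE 0.17) in old against young.

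Other genes of the pathway were followed in 7 further lists of 122 genes. Ribo-seq and efficiency values of these lists come from the fits with all libraries and are not given without the pair. Their counts stand beside shares over all genes in mRNA-seq of 34.9% higher and 36.1% lower in ICM, and 32.4% higher and 33.7% lower in old. The 12 subunits and partners of the oligosaccharyltransferase, which attaches N-glycans in the translocon, gave 10 higher and 0 lower in mRNA-seq in ICM against young and 9 and 0 in old against young, and in Ribo-seq 7 and 0, and 3 and 0, where 13.7% and 19.3% of all genes were higher. Among them DAD1 rose from 129 ± 10.7 CPM in young to 188 ± 13.2 in old and 260.3 ± 2.83 in ICM (n = 3 each), and KRTCAP2 from 55.8 ± 3.57 to 59.5 ± 5.72 and 111 ± 3.91. For transport from ER to Golgi, 16 of 22 genes were higher and 2 lower in ICM and 14 and 1 in old in mRNA-seq. KDELR3, a receptor that returns ER proteins from the Golgi, rose by 1.06 (SE 0.06) in ICM and 0.79 (SE 0.06) in old in mRNA-seq and by 1.58 (SE 0.25) and 1.15 (SE 0.20) in Ribo-seq. The small GTPase SAR1B of COPII vesicles rose by 1.10 and 0.59 in mRNA-seq.

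In mRNA-seq, against the same shares over all genes (34.9% higher and 36.1% lower in ICM, 32.4% and 33.7% in old), 15 of 22 other ERAD factors were higher and 4 lower in ICM and 14 and 0 in old, with JKAMP rising by 1.21 in ICM and 0.83 in old. Of 31 other folding enzymes and chaperones, 18 were higher and 5 lower in both comparisons. SERPINH1 (HSP47, the collagen chaperone) was among those whose mRNA fell, from 1445 ± 71.7 CPM in young to 727 ± 24.0 in old and 637 ± 25.2 in ICM, with log2 changes of -0.90 (SE 0.06) and -1.21 (SE 0.06). Its footprints were not called (-0.24, edgeR adjusted p 0.227, in old and -0.30, 0.192, in ICM), and its translational efficiency was higher in both, by 0.72 (SE 0.17, 0.011) in old and 0.93 (SE 0.17, 0.000662) in ICM. ERO1B mRNA rose by 0.90 in old and 1.78 in ICM from 4.09 ± 1.06 CPM. Of 16 other genes for targeting, translocation and signal peptidase, 8 were higher and 3 lower in ICM and 11 and 3 in old. SRPRA, the receptor of the signal recognition particle, rose by 1.13 in ICM and 0.49 in old and SEC11C, a catalytic signal peptidase subunit, by 1.27 and 0.88. The 6 other UPR sensors and proteases tested gave 4 higher and 2 lower in each comparison, and here CREB3 mRNA rose by 1.05 in ICM and 0.58 in old while CREB3L4 mRNA fell by 0.85 in ICM and 1.08 in old. The footprints of CREB3 were not called in either (-0.10, edgeR adjusted p 0.877, in ICM and 0.24, 0.492, in old).

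Of 12 genes of the PERK arm and its targets, 4 were higher and 7 lower in ICM in mRNA-seq (34.9% and 36.1% of all genes), and 2 and 7 in old (32.4% and 33.7%). The 2 genes of this list with the largest changes in ICM moved in opposite directions. ASNS (asparagine synthetase, a target of ATF4) fell from 104 ± 2.48 CPM to 22.7 ± 2.96 in old and 9.79 ± 2.15 in ICM, changes of -2.09 (SE 0.10, edgeR adjusted p 2.43e-14) and -3.45 (SE 0.11, 1.26e-17). ATF3, a stress-induced transcription factor, rose from 15.7 ± 0.301 CPM to 34.0 ± 7.74 in old and 155 ± 15.8 in ICM, changes of 1.22 (SE 0.13) and 3.28 (SE 0.12).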

How the data were processed

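The values the authors deposited are estimated counts of reads per gene symbol, region class and library, not scaled to depth. Per the methods, reads were assigned to the CDS for Ribo-seq and to transcripts for poly(A)-selected mRNA-seq. The submitters' processing notes name STAR 2.6.0c, featureCounts and GRCh37 without a role. How reads with several matches were divided, and the annotation release, are not given in the sources used here, so near-identical copies are uncertain. Between 14.1% and 23.2% of the non-zero values were not whole. Groups were taken from the titles.

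Rounded to whole numbers, the counts of all 9 libraries of an assay entered the quasi-likelihood test of edgeR 4.0.16 (R 4.3.3; glmQLFit, glmQLFTest) after TMM scaling and filterByExpr, two-sided, with Benjamini-Hochberg adjustment over all genes tested and a threshold of 0.05. Translational efficiency was the interaction of assay and condition over 18 libraries, with the lysate as a block, in place of anota2seq. CPM values in the text are not TMM-scaled, so ratios of CPM can differ from fitted changes. The SE is the absolute fitted change divided by the root of F. Levels between genes used the coding length of the Ensembl canonical transcript (GENCODE v44lift37). Intervals of shares are exact binomial at 95% and cover counting error only. No pair of replicates agreed within sampling noise (chi-square per degree of freedom 1.32 or more). The procedure was tested on simulated data with known 2-fold changes, up or down, in ICM against young. It recovered 100% of the changed genes in mRNA-seq, 41.4% in Ribo-seq and 32.4% for translational efficiency. False calls numbered 12, 2 and 0.

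All values per library are given for the 5 sensors and, in each other role, for the 2 genes highest per kilobase in mRNA-seq and the 2 with the largest change in each comparison with young. The values of HSPA5, HYOU1, SEC61A1 and SEC61B were added after they were seen. Companion lists are given by counts with at most 2 genes named each. The members and lists were chosen with earlier results of these data known. Alternatives were DESeq2 1.42.0, RLE scaling, no filter, a threshold of 0.15, a replicate block, fits of the compared groups alone, mRNA-seq CDS reads, thinned Ribo-seq, and leaving out each lysate. Scaling to total counts and an absolute log2 change over 0.6 were added after the data were seen.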

Additional observations from a re-analysis of the deposited data

Results flagged for a closer look

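PDIA3, ATF6 and CREB3L1 (3 of the 40 genes) were called lower in ICM and higher in old than in young in mRNA-seq. A call in the direct comparison of ICM with old (edgeR) was a condition for being listed here. It adds no separate support. The change in ICM minus the change in old was -0.325 (SE 0.062, adjusted p 9.4e-05) for PDIA3, -0.53 (SE 0.063, 1.84e-07) for ATF6 and -0.71 (SE 0.065, 2.73e-09) for CREB3L1. The single changes against young were smaller, and several of them were lost in alternatives, including scaling to total counts, under which the rises of PDIA3 (0.07) and CREB3L1 (0.08) in old were not called. The 3 libraries of ICM lay below the 3 of old for all 3 genes.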

How the results depend on the processing

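No value of a called member changed sign under any alternative. With an absolute log2 change over 0.6 also required, the calls in mRNA-seq dropped to 9 in ICM against young (8 higher, 1 lower), 4 in old against young and 2 in ICM against old. In Ribo-seq the calls in ICM against young moved to 4 without the filter. Those in old against young moved to 15 at an adjusted p under 0.15, 14 with the compared groups alone, 5 under scaling to total counts, 4 without the filter, 2 with DESeq2 and 1 in thinned libraries. Those in ICM against old moved to 4 at 0.15, to 3 without young replicate 1 and old replicate 2, and to 0 with DESeq2, the compared groups alone or thinned libraries. For translational efficiency, 1 gene passed at 0.15 in ICM against young and 1 in old against young, and 1 in old against young without young replicate 1 and old replicate 2. The cause was not tested, except that thinned libraries hold fewer reads.

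Leaving out 1 lysate gave 28 to 33, 21 to 25 and 27 to 30 calls in mRNA-seq for ICM against young, old against young and ICM against old. In Ribo-seq it gave 4 (without ICM replicate 1) to 7, 1 (without young replicate 2) to 11 (without ICM replicate 1), and 0 to 2, and for translational efficiency 0 to 0, 0 to 1 (without young replicate 1) and 0 to 1 (without ICM replicate 2).

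After subtraction of the group means, same-numbered libraries had correlations (r, across genes) of -0.0555 to 0.103 in mRNA-seq and 0.0047 to 0.0557 in Ribo-seq. Libraries that share a lysate per the methods gave no higher range (-0.0795 to 0.136). The check therefore cannot tell whether the numbers pair the cultures. A replicate block left 33, 23 and 30 calls in mRNA-seq and gave 6, 2 and 0 in Ribo-seq. Without the lysate block, whose libraries correlated with r of -0.0795 to 0.136, translational efficiency gave 1, 3 and 0 calls.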

Other observations

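Footprints of these genes in the 5′ UTR made up 1.74%, 1.23% and 1.05% of their UTR and CDS footprints in the young libraries, 0.620%, 0.488% and 0.254% in the old and 0.167%, 0.345% and 1.21% in the ICM libraries. ICM spanned young and old, and over all genes the shares were 10.2%, 3.70% and 2.78% in young, 4.88%, 44.7% and 13.8% in old and 2.43%, 5.36% and 4.15% in ICM. CREB3L1 held 75 of the 93 such footprints of the UPR sensors and factors. They made up 4.55%, 12.5% and 10.6% of its footprints in the young libraries, 4.06%, 0% and 0.709% in the old libraries, and 0 of 71.5 reads in ICM, for which the upper exact limit is 4.99%. For SSR2 the shares were 7.14%, 7.93% and 7.10% in young, 4.54%, 9.09% and 1.45% in old and 0%, 0% and 15.4% in ICM, the last from 2 reads. These shares were not tested between groups, and reads of a library are not independent replicates.

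In the 3′ UTR lay 25.4% of the footprints of these genes in old replicate 2 and 10.2% in young replicate 1, the libraries with the lowest CDS share, and 0.134% to 3.76% in the other 7. They came mainly from SEC61A1 (796 reads) and SPCS3 (338.5 reads) of 1686 in all. In SEC61A1 the 3′ UTR held 45.3%, 5.59% and 3.15% of the footprints in the young libraries, 14.1%, 77.9% and 25.0% in the old and 1.40%, 3.50% and 0% in the ICM libraries. In mRNA-seq it held 54.6%, 56.0% and 54.7% of the reads of SEC61A1 in young, old and ICM. In SPCS3 the shares of footprints were 71.9%, 13.9% and 4.57% in young, 24.7%, 78.7% and 34.6% in old and 14.8%, 5.26% and 0% in ICM.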
